A study of Mus musculus with 28 samples.

Results

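The 9 genes described here encode the transcription factors that steer CD4 T cells toward helper or effector fates: Tbx21, Eomes, Gata3, Rora, Ahr, Maf, Bcl6, Irf4 and Prdm1. They were chosen by name and with earlier results of these data known. They are the rows with these symbols among the 23420 gene symbols counted in each library, and all 9 passed the filter on low counts. RNA-seq had been done on CD4 T cells of male littermate mice aged 6 to 8 weeks, in 28 libraries. The mutant mice carried the allele Foxp3-deltaCNS3-gfp, which lacks the intronic Foxp3 enhancer CNS3 and is called KO in the sample titles. The controls carried Wild type Foxp3-gfp (WT), so both genotypes had the GFP reporter in Foxp3. Each of 4 sorted populations had 4 KO and 3 WT libraries. Spleen gave aTreg and rTreg cells, 2 regulatory T (Treg) cell fractions whose prefixes the titles do not spell out. Thymus gave Treg cells and CD4 single-positive cells labelled as non-Treg (CD4SP). The labels do not tie libraries to animals, so p-values measure the spread between these libraries, which may be technical in part.

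T-bet (Tbx21) drives Th1 cells, GATA3 Th2 cells, and RORalpha (Rora) supports Th17 cells together with AHR, a receptor for environmental and dietary ligands. EOMES is the T-box relative of T-bet and is best known from cytotoxic T cells. BCL6 is a transcriptional repressor that drives follicular helper cells, and BLIMP1 (Prdm1) is its antagonist and a factor of terminal effector cells. c-MAF (Maf) and IRF4 act across several effector lineages and drive IL-10. Treg cells use the same factors when they adapt to the type of immune response around them, and IRF4 and BLIMP1 are known for the effector state of Treg cells.

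On the GRCm38 assembly, with GENCODE M21 gene bounds, Tbx21 lies at chr11:97098071-97115331 on the minus strand, Eomes at chr9:118478212-118486132 on the plus strand, and Gata3 at chr2:9857078-9890034 on the minus strand. Rora lies at chr9:68653786-69388246 on the plus strand, Ahr at chr12:35497974-35535038 on the minus strand, and Maf at chr8:115682942-115707794 on the minus strand. Bcl6 lies at chr16:23965052-23988852 on the minus strand, Irf4 at chr13:30749226-30766976 on the plus strand, and Prdm1 at chr10:44437177-44528501 on the minus strand. All 9 are protein-coding, and the counts cover their exons, UTRs included. Gata3 overlaps 2 other counted genes, 4930412O13Rik on the opposite strand with 242 counts over all libraries and 9230102O04Rik on the same strand with 70. The sources do not say whether counting used strand, so such reads cannot be assigned with certainty.

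The promoters of 5 members follow, because Tbx21 and Eomes differed in opposite directions between the splenic fractions, Prdm1 differed widely between populations, and Rora and Bcl6 differed between KO and WT thymic Treg cells. They are the 250 bases before a RefSeq start site on GRCm38.p6, written 5′ to 3′ on the gene's strand, with motif matches in capitals. The windows are chr11:97115332-97115581 (minus strand) for Tbx21, chr9:118477939-118478188 (plus strand) for Eomes, and chr10:44458749-44458998 (minus strand) for Prdm1. They are chr16:23981284-23981533 (minus strand) for Bcl6 and chr9:68653536-68653785 (plus strand) for Rora. The Prdm1 window lies in an intron of the longer transcript Prdm1-203 and the Bcl6 window in an intron of Bcl6-201. The other 3 windows hold no annotated transcript. Maf and Ahr, which also differed widely between populations, are not shown because the promoter reference used held no entry for them.
Tbx21: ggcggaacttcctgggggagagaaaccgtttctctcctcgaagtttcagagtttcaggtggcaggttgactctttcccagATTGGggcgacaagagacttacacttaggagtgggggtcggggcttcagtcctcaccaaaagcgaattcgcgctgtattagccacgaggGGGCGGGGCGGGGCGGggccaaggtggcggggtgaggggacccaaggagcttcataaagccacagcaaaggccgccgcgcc
Eomes: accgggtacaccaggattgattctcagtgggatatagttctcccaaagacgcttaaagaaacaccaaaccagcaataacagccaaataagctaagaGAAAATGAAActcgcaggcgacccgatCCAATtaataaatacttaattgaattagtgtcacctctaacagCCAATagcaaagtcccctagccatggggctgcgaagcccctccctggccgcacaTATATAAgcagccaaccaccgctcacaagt
Prdm1: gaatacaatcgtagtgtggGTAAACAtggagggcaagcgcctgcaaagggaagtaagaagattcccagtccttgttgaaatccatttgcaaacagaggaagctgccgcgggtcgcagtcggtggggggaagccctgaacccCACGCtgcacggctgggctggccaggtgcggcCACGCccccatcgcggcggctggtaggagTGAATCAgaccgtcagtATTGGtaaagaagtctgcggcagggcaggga
Bcl6: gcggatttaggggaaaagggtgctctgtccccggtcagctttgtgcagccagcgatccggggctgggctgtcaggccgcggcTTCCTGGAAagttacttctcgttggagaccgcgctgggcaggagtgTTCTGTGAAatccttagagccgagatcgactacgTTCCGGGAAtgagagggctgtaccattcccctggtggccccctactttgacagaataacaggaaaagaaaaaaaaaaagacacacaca
Rora: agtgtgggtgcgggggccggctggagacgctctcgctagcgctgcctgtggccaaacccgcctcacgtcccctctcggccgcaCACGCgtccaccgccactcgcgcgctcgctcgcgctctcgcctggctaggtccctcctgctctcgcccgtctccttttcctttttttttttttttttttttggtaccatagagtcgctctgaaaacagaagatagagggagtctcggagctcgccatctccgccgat

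Motifs were searched on both strands, and the share of 32851 RefSeq promoters of the same length that held each was taken as background. Tbx21 held 3 copies of the GC box GGGCGG that overlap by 1 base each (32.7% of all promoters held it) and a CCAAT box read on the opposite strand (CCAAT, 33.8%). Eomes held an IRF element (GAAA, any 2 bases, then GAAA, 2.98%), 2 CCAAT boxes and a TATA-like element (TATATAA, 3.04%). Prdm1 held a forkhead motif, the kind of element that the FOXP3 family binds (GTAAACA, 3.17%), 2 copies of the AHR core (GCGTG, 28.2%), an AP-1 site (TGANTCA, 6.75%) and a CCAAT box. Bcl6 held 3 copies of the palindrome shared by STAT factors and BCL6 (TTCNNNGAA, 7.02%), and its second RefSeq window, at the gene's outer start, held 1. Rora held an AHR core. None of these 5 windows matched the T-box half-site GGTGTGA (3.33%), the GATA motifs AGATAA (9.99%) and TGATAA (7.94%), the ROR half-site AGGTCA (14%), the MAF half-site TGCTGAC (3.81%) or the TATA box TATAAA (12.4%). A match says only that the letters are present.

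Libraries held 2.20e+07 to 4.08e+07 counts in genes. Levels are given as CPM, counts scaled to the usual common total of CPM with TMM factors, without adjustment for gene length unless stated. Sorted identities were checked with marker genes. Foxp3 ranged from 446 to 671 CPM in the 21 Treg libraries and from 1.07 to 3.49 CPM in CD4SP. Its mean was lower in KO in each population. It was at 446 to 614 CPM in KO and 642 to 671 CPM in WT thymic Treg, and at 492 to 550 CPM in KO and 587 to 654 CPM in WT aTreg. In rTreg it was at 508 to 602 CPM in KO and 579 to 662 CPM in WT, and in CD4SP at 1.07 to 1.91 CPM in KO and 3.23 to 3.49 CPM in WT. Splenic aTreg libraries stood apart by high Cd44, an activation marker (350.4 to 403 CPM, against at most 273 CPM in all other libraries), and high Klrg1, a receptor of effector cells (158 to 263 CPM, against at most 21.7). Ccr7, the homing receptor of resting T cells, was at 154 to 216 CPM in aTreg and 438 to 585 CPM in rTreg. Markers of other cells were detected in every group. The 14 myeloid markers summed to 519 to 1207 CPM in KO thymic Treg and 320 to 469 CPM in WT thymic Treg, and to 89.4 to 468 CPM elsewhere. The 11 dendritic cell markers summed to 798 to 1448 CPM in aTreg, 495 to 966 CPM in thymic Treg, 334 to 528 CPM in rTreg and 116 to 335 CPM in CD4SP. B cell markers summed to 9.64 to 162 CPM over all libraries. KO CD4SP library 2 stood apart from the other KO CD4SP libraries, with the highest sum for myeloid (253 CPM), B cell (35.4 CPM) and immature thymocyte markers (1346 CPM). In bulk RNA, fewer cells that express a gene and less RNA per cell cannot be told apart.

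Per kilobase of exon, Gata3 was the most abundant of the 9 in every group, at 101 CPM per kilobase in WT thymic Treg, 75.7 in WT rTreg, 73.9 in WT aTreg and 40.3 in WT CD4SP. In WT thymic Treg it was followed by Irf4 (16.5), Bcl6 (6.82), Maf (5.07), Rora (2.71), Prdm1 (2.53), Ahr (2.50), Eomes (0.822) and Tbx21 (0.173). In WT aTreg the order behind Gata3 was Maf (65.3), Prdm1 (27.4), Irf4 (24.5), Ahr (5.13), Bcl6 (4.66), Rora (3.07), Tbx21 (1.81) and Eomes (0.0937). Eomes and Tbx21 were thus the 2 scarcest members in both, with their order exchanged. Across the 8 group means of log2(CPM + 0.5), Maf had the widest span at 7.09, followed by Prdm1 at 5.20, Ahr at 4.45 and Rora at 3.17. Behind them came Tbx21 at 3.11, Eomes at 2.25, Irf4 at 2.04, Gata3 at 1.32 and Bcl6 at 1.14. The added 0.5 lowers the values of scarce genes, Tbx21 and Eomes most, so this order does not rank their fold changes. The spread between libraries of one group was far smaller on the same scale, with a pooled SD of 0.09 for Gata3 and at most 0.36 for any member.

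**Figure D1:**
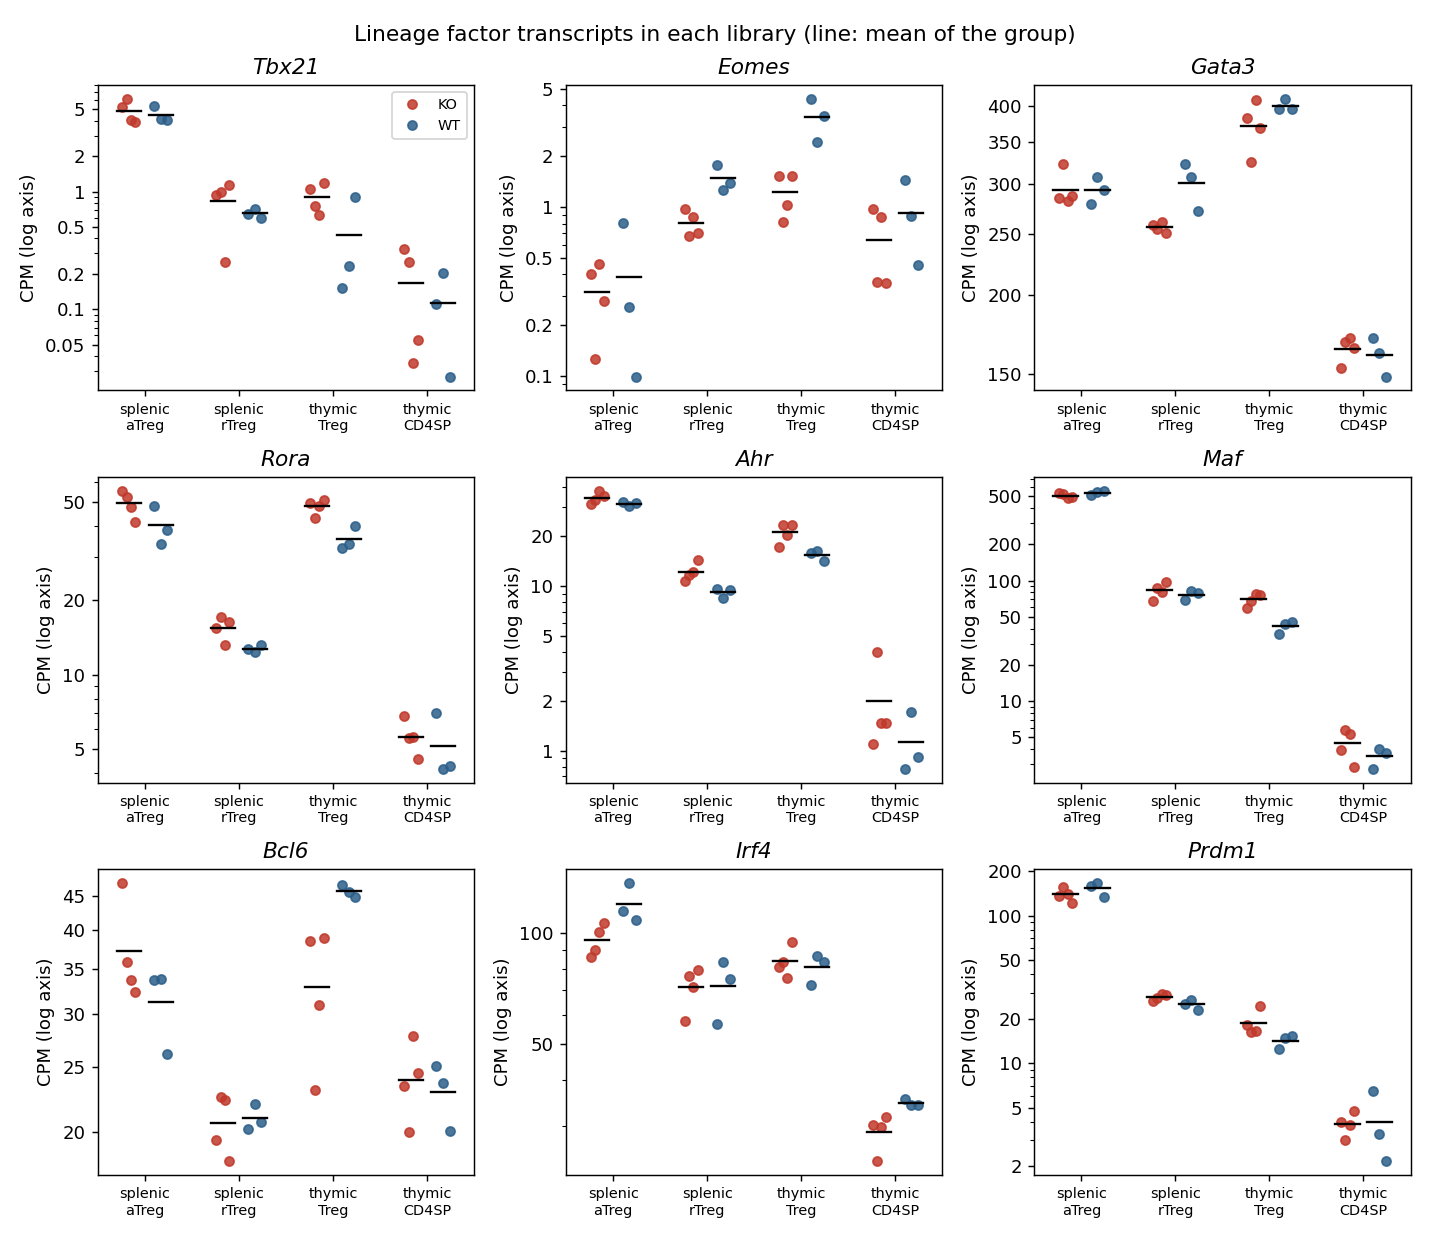
CPM (log axis) of each of the 9 genes in every library, by population (splenic aTreg, splenic rTreg, thymic Treg, thymic CD4SP), with KO in red left of WT in blue and a line at each group mean. Maf and Prdm1 are highest in both aTreg groups, Eomes is highest in WT thymic Treg cells, and all 9 are lowest in CD4SP or, for Eomes and Bcl6, in splenic Treg cells.

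Loss of the enhancer went with changed levels of 4 of the 9 factors in thymic Treg cells: Maf and Rora were higher and Eomes and Bcl6 lower in KO. Among all 13338 genes tested in this comparison, 9.34% passed the threshold of an adjusted p of 0.05 (4.21% higher and 5.13% lower in KO). The test throughout is edgeR's quasi-likelihood F test, with p adjusted by Benjamini-Hochberg over all genes tested. Whether groups overlapped is given as description only, since the share of all genes without overlap was not counted.

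Maf, which drives IL-10 and follicular programmes, was at 59.2, 67.4, 78.0 and 76.6 CPM in KO thymic Treg libraries 1 to 4, against 35.8, 44.1 and 45.6 CPM in WT libraries 1 to 3. Every KO library was above every WT library. The KO mean was 70.3 ± 8.75 CPM and the WT mean 41.8 ± 5.28 CPM (SD over 4 and 3 libraries). This is 1.68-fold, or 0.75 on the log2 scale (SE 0.14, edgeR adjusted p = 0.00104). Rora, an orphan nuclear receptor of Th17 and tissue Treg cells, was at 49.6, 43.0, 48.2 and 50.9 CPM in KO and 32.6, 33.7 and 40.1 CPM in WT. The groups did not overlap, and the log2 fold change was 0.43 (SE 0.14, edgeR adjusted p = 0.0490), close to the threshold.

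Eomes was scarce, at 1.52, 0.822, 1.04 and 1.52 CPM in KO (49, 23, 26 and 54 counts) and 4.37, 2.43 and 3.44 CPM in WT (172, 73 and 137 counts). All KO libraries were below all WT libraries, and Eomes fell by 1.47 on the log2 scale (SE 0.44, edgeR adjusted p = 0.0353). Bcl6 was at 38.5, 23.1, 31.0 and 39.0 CPM in KO and 46.7, 45.5 and 44.9 CPM in WT. The WT libraries lay close together and above the more scattered KO libraries, with a log2 fold change of -0.47 (SE 0.14, edgeR adjusted p = 0.0366).

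The other 5 factors did not pass in thymic Treg cells. Prdm1 was at 18.2, 16.2, 16.6 and 24.4 CPM in KO and 12.5, 14.7 and 15.2 CPM in WT. Ahr was at 17.3, 23.5, 20.4 and 23.5 CPM in KO and 15.8, 16.2 and 14.2 CPM in WT. For both genes the groups did not overlap, with log2 fold changes of 0.42 for Prdm1 (edgeR adjusted p = 0.133) and 0.46 for Ahr (edgeR adjusted p = 0.159). Tbx21 had few counts, and its libraries read 1.05, 0.751, 0.638 and 1.18 CPM in KO (34, 21, 16 and 42 counts) and 0.153, 0.233 and 0.905 CPM in WT (6, 7 and 36 counts). WT library 3 lay within the KO range, and the log2 fold change was 1.06 with a 95% interval of -0.02 to 2.13 (edgeR adjusted p = 0.198). Without that WT library it was 2.24 (edgeR adjusted p = 0.0265). Gata3 was at 372 ± 35.0 CPM in KO and 400 ± 8.77 CPM in WT (log2 fold change -0.11, interval -0.25 to 0.04), and Irf4 at 83.9 ± 8.01 CPM in KO and 81.0 ± 7.49 CPM in WT (0.05, interval -0.19 to 0.29).

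Other measures differed between the same libraries. Myeloid markers summed to 918, 1207, 587 and 519 CPM in KO thymic Treg libraries 1 to 4 and 320 to 469 CPM in WT, none of the 14 was at 0, and 4 of 14 passed, all higher. At an unadjusted edgeR p under 0.05 there were 13 of 14, where the share over all genes was 26.6%. Macrophages are known to express Maf. CD8 T and NK cell markers summed to 471 to 554 CPM in KO and 321 to 373 CPM in WT, with Klra8 at 0. Of 10 tested, 1 was higher, Ccl5 (269 ± 8.55 CPM in KO and 138 ± 10.6 CPM in WT). B cell markers, of the lineage in which Bcl6 and Prdm1 are also at work, summed to 57.7 to 63.6 CPM in KO and 40.7 to 45.2 CPM in WT, with 0 of 12 higher and 1 lower, and Pax5 at 0 in WT. Immature thymocyte markers differed the other way and summed to 374 to 429 CPM in KO and 479 to 571 CPM in WT, with 0 of 11 higher and 2 lower. Handling stress genes, which are induced while tissue is processed, summed to 652 to 840 CPM in KO and 711 to 809 CPM in WT. Of 12 tested, 8 had an unadjusted edgeR p under 0.05, where 26.6% of all genes did, and 1 passed after adjustment. Their part in the factors was not tested. The share of reads outside genes was 42.3 to 45.0% in KO and 46.3 to 49.3% in WT.

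With the myeloid sum as a covariate, Maf kept its call (0.75, edgeR adjusted p = 0.0198), while Rora (0.45, adjusted p = 0.186), Bcl6 (-0.25, adjusted p = 0.456) and Eomes (-1.27, adjusted p = 0.239) lost theirs. With the share outside genes as a covariate, 0 of 9 passed, and Maf was at 0.63 (edgeR adjusted p = 0.260). Neither that share nor the myeloid sum overlapped between KO and WT here, so neither covariate can be told apart from genotype. Without KO libraries 1 and 2, Maf was at 0.89 (edgeR adjusted p = 0.00145), and the log2 fold changes of Rora (0.48), Bcl6 (-0.38) and Eomes (-1.41) missed the threshold. The KO libraries that remained, 3 and 4, still had higher myeloid sums than every WT library. Leaving out single libraries kept the Maf call in each case (edgeR adjusted p at most 0.0165), while the other 3 lost theirs in most. Rora lost it without KO library 1, 3 or 4 or WT library 1 or 2 (0.38 to 0.43, adjusted p up to 0.196). Bcl6 lost it without KO library 2 or 3 or any WT library (-0.49 to -0.34, adjusted p up to 0.119). Eomes lost it without KO library 1, 2 or 3 or any WT library (-1.66 to -1.25, adjusted p up to 0.161).

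**Figure D2:**
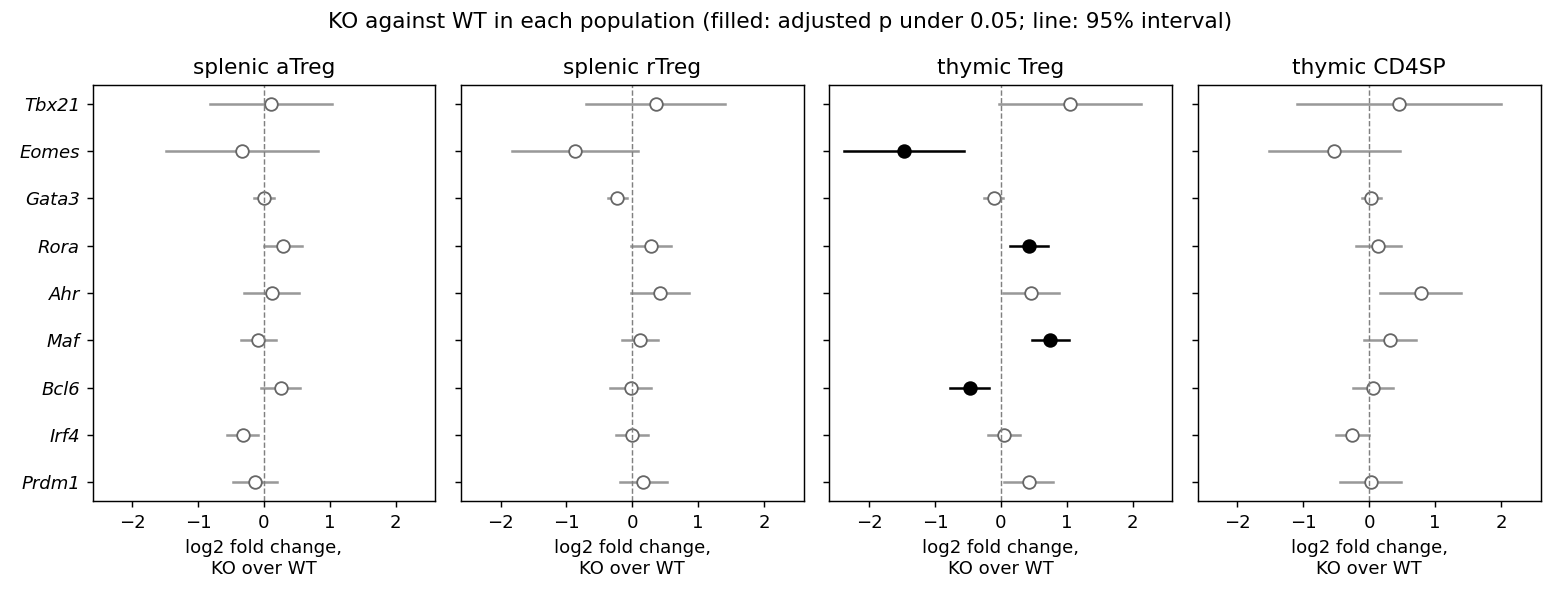
Log2 fold change of KO over WT for each gene in splenic aTreg, splenic rTreg, thymic Treg and thymic CD4SP cells, with 95% intervals from the edgeR fit and filled points at an adjusted p under 0.05. The filled points are Eomes, Rora, Maf and Bcl6 in thymic Treg cells, between -1.47 and 0.75.

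Genes of the lineages that these factors serve were counted beside them in KO thymic Treg cells, where the median log2 fold change over all genes tested was 0.02. The lists were chosen with earlier results of these data known, so their counts here and below are description and no test of a programme. Of 15 Th1 genes tested, 5 rose and 0 fell (median 0.77), among them Cxcr3, a chemokine receptor induced by T-bet (58.4 ± 4.94 CPM in KO and 25.5 ± 2.19 CPM in WT, log2 fold change 1.19), the IL-18 receptor chain Il18r1 (0.77) and the chemokine Ccl5 (0.96). Of 10 Th2 genes, 2 rose, the IL-33 receptor Il1rl1 (12.5 ± 1.84 CPM in KO and 5.99 ± 0.898 CPM in WT, 1.07) and Nfil3 (0.70), and 1 fell, the signal transducer Stat5b (-0.23). Of 10 Th17 genes, 1 rose, the AP-1 factor Batf (0.43), which pairs with IRF4. Of 13 follicular genes, 3 rose and 0 fell: Icos (0.48), Pdcd1 (0.49) and Cxcl13 (2.74, with 4.64 ± 3.38 CPM in KO and 0.701 ± 0.414 CPM in WT).

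AHR pathway genes had 1 of 8 higher, the homing receptor Gpr15 (27.4 ± 7.73 CPM in KO and 15.1 ± 3.51 CPM in WT, log2 fold change 0.86), and a median of 0.12. Partner and target genes of IRF4 and BLIMP1 had 3 of 13 higher, among them Id2 (0.74), and 1 lower, Ikzf1 (-0.38). Effector Treg genes had 13 of 17 higher and 0 lower (median 0.63), including Icos and Klrg1 (19.9 ± 2.19 CPM in KO and 9.13 ± 1.38 CPM in WT, 1.13). Resting T cell genes had 1 of 11 higher and 4 lower (median -0.21), and Satb1 (-0.52), Bach2 (-0.39) and Foxp1 (-0.27), factors of naive T cells, were among those that fell. All changes named here passed edgeR's test at an adjusted p under 0.05. Myeloid markers and the share outside genes moved with these lists as with the 9 factors, and their part in the list counts was not tested.

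In the other 3 populations, 0 of 9 factors passed between KO and WT by edgeR, DESeq2 or limma voom. Few genes of any kind did: 0.195% of those tested in CD4SP, 0.135% in rTreg and 0.03% in aTreg. At an unadjusted p under 0.05, edgeR counted 2 factors in CD4SP, 1 in rTreg and 2 in aTreg, where the share over all genes was 6.21% in CD4SP, 6.16% in rTreg and 6.73% in aTreg. At that threshold it counted 7 of 12 handling stress genes in CD4SP, 6 of 12 in rTreg and 7 of 12 in aTreg. Their sum was 1772 to 2238 CPM in KO aTreg and 1510 to 1697 CPM in WT aTreg, without overlap. In CD4SP and rTreg the sums overlapped. The part of these genes in the factors was not tested.

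Irf4 was at 86.3, 90.4, 101 and 107 CPM in KO aTreg and 115, 137 and 109 CPM in WT aTreg. No KO library reached a WT library, with a log2 fold change of -0.32, an interval of -0.56 to -0.08 and an edgeR adjusted p of 0.556. In CD4SP, Irf4 was likewise without overlap, at 30.1, 24.1, 29.8 and 31.6 CPM in KO and 35.5, 34.2 and 34.1 CPM in WT (-0.26, edgeR adjusted p = 0.793). Gata3 in rTreg was at 258, 254, 262 and 252 CPM in KO and 324, 308 and 272 CPM in WT. Those groups did not overlap, with a log2 fold change of -0.23, an interval of -0.37 to -0.09 and an edgeR adjusted p of 0.406. How many of all genes lacked overlap in these populations was not counted, so such separations are no evidence of a change.

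Eomes in rTreg stood at 0.973, 0.677, 0.873 and 0.700 CPM in KO (31, 17, 24 and 22 counts) and 1.78, 1.27 and 1.39 CPM in WT (55, 37 and 51 counts). The KO libraries were all lower (log2 fold change -0.87, interval -1.82 to 0.08, edgeR adjusted p = 0.828). Ahr in rTreg was at 10.8, 11.6, 12.2 and 14.3 CPM in KO and 9.62, 8.42 and 9.39 CPM in WT, again without overlap (0.42, edgeR adjusted p = 0.812). In CD4SP, Ahr was at 1.10, 4.003, 1.47 and 1.48 CPM in KO and 0.779, 1.72 and 0.912 CPM in WT (0.78, edgeR adjusted p = 0.590), and the high KO value came from library 2, which stood apart in markers of other cells. Without it the log2 fold change was 0.23.

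Maf, called in thymic Treg cells, was at 531, 522, 486 and 491 CPM in KO aTreg and 510, 549 and 555 CPM in WT aTreg, with overlapping groups and an interval of -0.35 to 0.18 around a log2 fold change of -0.08. In rTreg it was at 83.1 ± 12.5 CPM in KO and 76.7 ± 6.49 CPM in WT (interval -0.15 to 0.39), and in CD4SP at 4.46 ± 1.35 CPM in KO and 3.49 ± 0.670 CPM in WT (interval -0.08 to 0.71). Rora was at 55.3, 52.5, 47.8 and 41.5 CPM in KO aTreg and 48.3, 33.9 and 38.4 CPM in WT aTreg (interval 0.01 to 0.58, edgeR adjusted p = 0.733). The lineage lists had few calls outside the thymic Treg comparison. In KO rTreg these were Il18r1 (47.5 ± 3.63 CPM in KO and 26.3 ± 2.29 CPM in WT, log2 fold change 0.85), Il1rl1 (0.91) and the chemokine receptor Ccr8 (0.65). In KO CD4SP they were Ccr6, a chemokine receptor of the Th17 list (3.12 ± 1.77 CPM in KO and 0.556 ± 0.0999 CPM in WT, 2.47), Irf8 (0.94) and Tnfrsf9 (0.54), all higher in KO by edgeR's test. Ccr6 was also far higher in WT thymic Treg cells than in WT CD4SP, as given below. Of 8 Treg cell markers, 5 passed between KO and WT CD4SP by edgeR, with sums of 373 to 589 CPM in KO and 316 to 333 CPM in WT. The sum does not show the direction of each marker. Foxp3, which is among the 8, went the other way, at 1.07 to 1.91 CPM in KO and 3.23 to 3.49 CPM in WT. The part of the Treg cell markers in the CD4SP calls was not tested. In KO aTreg, 0 genes of these lists passed by edgeR.

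Whether a KO effect differed between populations was tested directly as a difference of 2 log2 fold changes. For aTreg minus thymic Treg, Maf passed at -0.83 (SE 0.19, interval -1.22 to -0.45, edgeR adjusted p = 0.0259), where 0.847% of all genes did. The KO effect was thus -0.08 in aTreg and 0.75 in thymic Treg cells. With the myeloid sum as a covariate the difference was -0.83 (edgeR adjusted p = 0.172), with the share outside genes -0.74 (adjusted p = 0.331), and leaving out single libraries gave -0.91 to -0.73. The myeloid sum was lower in KO aTreg (252 to 299 CPM) than in WT aTreg (358 to 468 CPM). In thymic Treg it was higher in KO (519 to 1207 CPM) than in WT (320 to 469 CPM). Neither pair overlapped, so this sum cannot be told apart from genotype in either population. The Maf call was lost without KO aTreg library 3 or 4, KO thymic Treg library 3, WT aTreg library 3 or WT thymic Treg library 1 or 2 (adjusted p 0.0508 to 0.0978). Bcl6 stood at 0.73 with an edgeR adjusted p of 0.0872, and passed with DESeq2 (adjusted p = 0.0320) and voom (adjusted p = 0.0397). Prdm1 was at -0.56 (edgeR adjusted p = 0.245) and Irf4 at -0.37 (edgeR adjusted p = 0.258).

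For the other differences between KO effects, 0 of 9 factors passed by edgeR, DESeq2 or voom. The background was 0.03% for rTreg minus thymic Treg, 0.615% for thymic Treg minus CD4SP and 0% for aTreg minus rTreg. At an unadjusted p under 0.05, edgeR counted 2 factors for rTreg minus thymic Treg, and 1 each for thymic Treg minus CD4SP and aTreg minus rTreg. Over all genes the share at that threshold was 9.88% for rTreg minus thymic Treg, 13.8% for thymic Treg minus CD4SP and 4.63% for aTreg minus rTreg. For rTreg minus thymic Treg, Maf was at -0.64 with an interval of -1.02 to -0.25 (edgeR adjusted p = 0.256).

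The larger differences lay between populations. Thymic Treg cells had higher transcripts than CD4SP for 8 of 9 factors in KO mice and 9 of 9 in WT mice, and 0 were lower. Among all genes tested, 56.5% passed in KO (30% higher, 26.5% lower) and 48.3% in WT (26.8% higher, 21.6% lower). Ahr and Maf differed most. Maf was at 59.2 to 78.0 CPM in KO thymic Treg and 2.82 to 5.77 CPM in KO CD4SP (log2 fold change 3.99), and at 35.8 to 45.6 CPM in WT thymic Treg and 2.74 to 4.04 CPM in WT CD4SP (3.56). The Ahr log2 fold change was 3.40 in KO and 3.72 in WT, that of Rora 3.10 and 2.81, that of Prdm1 2.27 and 1.87, that of Irf4 1.54 and 1.23, and that of Gata3 1.18 and 1.32. Groups did not overlap for these 6 genes.

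Bcl6 rose less, by 0.46 in KO, where the groups overlapped, and by 0.997 in WT on the log2 scale. Tbx21 in CD4SP rested on 8, 7, 1 and 2 counts in KO and 3, 8 and 1 in WT. Its log2 fold change was 2.50 in KO (edgeR adjusted p = 0.000435) and 1.89 in WT (edgeR adjusted p = 0.0241), and the WT call was lost without WT CD4SP library 1 (1.88, adjusted p = 0.0539) or 3 (1.42, adjusted p = 0.122) or WT thymic Treg library 3 (0.70, adjusted p = 0.469), and stood at 2.72 without WT CD4SP library 2. Eomes was at 0.822 to 1.52 CPM in KO thymic Treg and 0.356 to 0.981 CPM in KO CD4SP, with overlap and a log2 fold change of 0.95 (edgeR adjusted p = 0.0720, or 0.0387 at 1.22 without KO CD4SP library 1). In WT mice it was at 2.43 to 4.37 CPM in thymic Treg and 0.456 to 1.45 CPM in CD4SP (1.90, edgeR adjusted p = 0.00232). The difference of the KO from the WT Eomes contrast was -0.94 with an interval of -2.30 to 0.42, and it did not pass.

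Genes of the same lineages were counted in the WT thymic comparison, where the median over all genes was 0.03. Th1 genes had 10 of 15 higher and 1 lower, with Cxcr3 at 25.5 ± 2.19 CPM in thymic Treg and 2.10 ± 0.494 CPM in CD4SP. Th17 genes had 7 of 10 higher and 1 lower, with Ccr6 at 277 ± 15.5 CPM in thymic Treg and 0.556 ± 0.0999 CPM in CD4SP. Th2 genes had 8 of 10 higher and 1 lower, including Stat5a (1.81), and follicular genes 7 of 13 higher and 5 lower, including Pdcd1 (2.83) and Cxcr5 (4.73) among the higher. AHR pathway genes had 3 of 8 higher, led by Gpr15 (6.87), and 2 lower, among them Tiparp (-0.64). Partner genes of IRF4 and BLIMP1 had 10 of 13 higher, with Irf8 at 3.56, and 2 lower, with Ikzf1 at -1.13. Their summed level was 1527 to 1556 CPM in WT thymic Treg and 1988 to 2176 CPM in WT CD4SP. Myeloid markers were also higher in WT thymic Treg, 13 of 14, at a sum of 320 to 469 CPM, against 94.8 to 102 CPM in WT CD4SP. With their sum as a covariate, Tbx21 (1.82, edgeR adjusted p = 0.229) and Eomes (2.32, adjusted p = 0.0617) no longer passed in WT, and the other 7 factors did. In KO, Tbx21 lost its call with that covariate (2.40, adjusted p = 0.180) and the other 7 called factors kept theirs. The myeloid sum did not overlap between thymic Treg and CD4SP in either genotype, so it cannot be told apart from population. With the share of reads outside genes as a covariate, WT Eomes (1.10, adjusted p = 0.161) and WT Tbx21 (adjusted p = 0.0652) missed the threshold.

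Splenic rTreg cells had lower Rora, Ahr, Bcl6 and Gata3 than thymic Treg cells in both genotypes. Prdm1 was higher in both, and Maf passed as higher in WT. Of all genes tested, 42.9% passed in KO (19.6% higher, 23.3% lower) and 30.6% in WT (13.9% higher, 16.7% lower). Rora was at 15.4, 17.1, 13.2 and 16.3 CPM in KO rTreg and 43.0 to 50.9 CPM in KO thymic Treg (log2 fold change -1.63), and at 12.7, 12.3 and 13.2 CPM in WT rTreg and 32.6 to 40.1 CPM in WT thymic Treg (-1.48). The Bcl6 log2 fold change was -0.68 in KO and -1.12 in WT, that of Ahr -0.79 and -0.75, and that of Gata3 -0.53 and -0.41, without overlap of the groups.

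Prdm1 was higher in rTreg, at 26.3 to 29.3 CPM in KO rTreg and 16.2 to 24.4 CPM in KO thymic Treg (log2 fold change 0.57, edgeR adjusted p = 0.00584), and at 22.9 to 26.9 CPM in WT rTreg and 12.5 to 15.2 CPM in WT thymic Treg (0.83, edgeR adjusted p = 0.00142). Maf was at 83.1 ± 12.5 CPM in KO rTreg and 70.3 ± 8.75 CPM in KO thymic Treg (0.24, edgeR adjusted p = 0.114, or 0.0374 at 0.33 without KO rTreg library 1), and at 76.7 ± 6.49 CPM in WT rTreg and 41.8 ± 5.28 CPM in WT thymic Treg (0.88, edgeR adjusted p = 3.23e-05). The Eomes log2 fold change was -0.61 in KO and -1.21 in WT (edgeR adjusted p = 0.0564), and neither Tbx21 nor Irf4 passed in either genotype. Without WT thymic Treg library 3, Tbx21 passed as higher in WT rTreg (1.76, edgeR adjusted p = 0.0429), and without WT rTreg library 2, Ahr missed the threshold in WT (-0.70, edgeR adjusted p = 0.0511). Myeloid markers were lower in rTreg, 14 of 14 in KO (107 to 135 CPM in rTreg, against 519 to 1207 CPM in thymic Treg) and 12 of 14 in WT. With their sum as a covariate, the Ahr value in KO turned to 0.38 (edgeR adjusted p = 0.698), that of Prdm1 to -0.27 (adjusted p = 0.791), and the calls of Ahr (-0.05, adjusted p = 0.939) and Prdm1 (0.34, adjusted p = 0.504) in WT were lost. The myeloid sum did not overlap between rTreg and thymic Treg in either genotype, so it cannot be told apart from population. With the share of reads outside genes as a covariate, the KO calls of Prdm1 (0.26, adjusted p = 0.651) and Ahr (-0.54, adjusted p = 0.402) were lost, and that of Prdm1 also without KO thymic Treg libraries 1 and 2 (0.45, adjusted p = 0.0929). Handling stress genes, which are induced while tissue is processed, summed to 1870 to 2756 CPM in KO rTreg and 652 to 840 CPM in KO thymic Treg, with 8 of 12 higher and 2 lower. In WT they summed to 1770 to 1950 CPM in rTreg and 711 to 809 CPM in thymic Treg, with 7 higher and 3 lower. Immature thymocyte markers were lower in rTreg, 8 of 11 in KO and 9 of 11 in WT, and the part of these markers in the factors was not tested.

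The aTreg fraction differed from rTreg in most members: 8 were higher and Eomes lower in KO, and 7 were higher and Eomes lower in WT. Among all genes, 41.6% passed in KO (21.7% higher, 19.9% lower) and 37.9% in WT (19.9% higher, 18.1% lower). Maf, Tbx21 and Prdm1 differed most. Maf was at 531, 522, 486 and 491 CPM in KO aTreg and 67.2, 87.2, 81.1 and 97.1 CPM in KO rTreg, a log2 fold change of 2.61. In WT it was at 510, 549 and 555 CPM in aTreg and 69.3, 81.2 and 79.6 CPM in rTreg (2.81). Prdm1 was at 136, 157, 140 and 122 CPM in KO aTreg and 26.3, 27.8, 29.3 and 28.9 CPM in KO rTreg (2.31), and at 159, 166 and 134 CPM in WT aTreg and 25.3, 26.9 and 22.9 CPM in WT rTreg (2.61). Every aTreg library was several times above every rTreg library for both genes.

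Tbx21, the Th1 factor, was at 5.29, 6.15, 4.07 and 3.89 CPM in KO aTreg and 0.941, 0.996, 0.255 and 1.14 CPM in KO rTreg (log2 fold change 2.53), and at 5.33, 4.12 and 4.05 CPM in WT aTreg and 0.648, 0.719 and 0.599 CPM in WT rTreg (2.78). Eomes, its relative, went the other way, at 0.4004, 0.127, 0.462 and 0.278 CPM in KO aTreg (9, 4, 11 and 8 counts) and 0.677 to 0.973 CPM in KO rTreg. It fell by 1.38 on the log2 scale in KO (edgeR adjusted p = 0.0272). In WT it was at 0.810, 0.258 and 0.0997 CPM in aTreg (24, 7 and 3 counts) and 1.27 to 1.78 CPM in rTreg (-1.91, edgeR adjusted p = 0.00578, or -3.04 without WT aTreg library 1). The KO call for Eomes was lost without KO aTreg library 2 or 4 or KO rTreg library 1 or 3 (-1.34 to -1.09, edgeR adjusted p 0.0528 to 0.104).

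Ahr was higher in aTreg by 1.49 in KO and 1.79 in WT on the log2 scale, and Rora by 1.67 and 1.66. Irf4 was at 86.3 to 107 CPM in KO aTreg and 58.0 to 79.7 CPM in KO rTreg (0.43), and at 109 to 137 CPM in WT aTreg and 56.8 to 83.5 CPM in WT rTreg (0.74). Bcl6 was at 47.0, 35.9, 33.7 and 32.4 CPM in KO aTreg and 18.1 to 22.5 CPM in KO rTreg (0.85), and at 33.7, 33.8 and 26.1 CPM in WT aTreg and 20.2 to 22.0 CPM in WT rTreg (0.57). Gata3 varied least, at 285, 323, 282 and 287 CPM in KO aTreg and 252 to 262 CPM in KO rTreg (0.20, edgeR adjusted p = 0.0163, or 0.0831 at 0.15 without KO aTreg library 2), and at 280, 308 and 294 CPM in WT aTreg and 272 to 324 CPM in WT rTreg (-0.03, interval -0.19 to 0.12). The difference between the Gata3 contrasts was 0.23, with an interval of 0.03 to 0.44, and did not pass.

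Genes of the lineages were counted in WT aTreg against rTreg, where the median over all genes was -0.01. All 17 effector Treg genes were higher (median 2.71), with Icos the most certain (2.71). Th1 genes had 11 of 15 higher and 1 lower, with Cxcr3 at 232 ± 35.6 CPM in aTreg and 30.9 ± 2.77 CPM in rTreg, and Ccl5 (3.04) beside it. Th17 genes had 6 of 10 higher and 2 lower, with Batf at 191 ± 28.6 CPM in aTreg and 62.3 ± 7.52 CPM in rTreg. Th2 genes were split, 5 of 10 higher, among them Ccr3 (4.24), Ccr4 (2.13) and Nfil3 (2.43), and 4 lower. Follicular genes had 7 of 13 higher and 2 lower, with Pdcd1 (1.96) and Sh2d1a (0.89) among the higher, and AHR pathway genes 4 of 8 higher and 1 lower, with Gpr15 (1.62), Nqo1 (1.91) and Ahrr (2.88), the AHR repressor, among the higher. Partner genes of IRF4 and BLIMP1 had 5 of 13 higher and 2 lower, including Id2 (1.94) and Ikzf3 (1.45), and resting T cell genes 0 of 11 higher and 10 lower, including Satb1 (-1.83) and Bach2 (-1.50). Myeloid markers had 12 of 14 higher, at 358 to 468 CPM in WT aTreg and 124 to 135 CPM in WT rTreg. With their sum as a covariate, Eomes lost its call (-1.55, edgeR adjusted p = 0.245), and the other 7 called factors kept theirs. In KO, Eomes lost its call with that covariate (-1.12, adjusted p = 0.277). The myeloid sum did not overlap between aTreg and rTreg in either genotype, so it cannot be told apart from population. With the share of reads outside genes as a covariate, KO Eomes (-0.63, adjusted p = 0.461), Irf4 (0.36, adjusted p = 0.0645) and Gata3 (0.19, adjusted p = 0.108) missed the threshold.

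Compared with thymic Treg cells, aTreg had higher Maf, Prdm1, Tbx21 and Ahr and lower Eomes and Gata3 in both genotypes. Of all genes, 41.9% passed in KO (20.6% higher, 21.3% lower) and 40.3% in WT (19.9% higher, 20.4% lower). This comparison shares its libraries with the 2 before it. The Maf log2 fold change was 2.85 in KO and 3.69 in WT, that of Prdm1 2.88 and 3.44, that of Tbx21 2.40 and 3.35, and that of Ahr 0.69 and 1.04. Eomes was at 0.127 to 0.462 CPM in KO aTreg and 0.822 to 1.52 CPM in KO thymic Treg (-1.98), and at 0.0997 to 0.810 CPM in WT aTreg and 2.43 to 4.37 CPM in WT thymic Treg (-3.12). Rora did not pass in either genotype, at 0.04 in KO and 0.18 in WT, so its levels in aTreg and thymic Treg cells were not separated while those of rTreg lay far below. Bcl6 (0.18 in KO and -0.55 in WT) and Irf4 (0.20 in KO and 0.57 in WT) passed in WT and not in KO, and the difference between the genotypes passed for neither. Without WT aTreg library 3, the WT value of Bcl6 was -0.43 (edgeR adjusted p = 0.0533). The WT value of Tbx21 was 4.54 without WT thymic Treg library 3, and that of Eomes was -4.25 without WT aTreg library 1. B cell markers were higher in aTreg, 10 of 12 in KO (140 to 162 CPM in aTreg and 57.7 to 63.6 CPM in thymic Treg) and 11 of 12 in WT (128 to 155 CPM in aTreg and 40.7 to 45.2 CPM in thymic Treg). Immature thymocyte markers were lower, 11 of 11 in KO and 10 of 11 in WT, and handling stress genes were higher, 8 of 12 in KO and 7 of 12 in WT, with 1 lower in each genotype. The part of these markers in the factors was not tested.

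**Figure D3:**
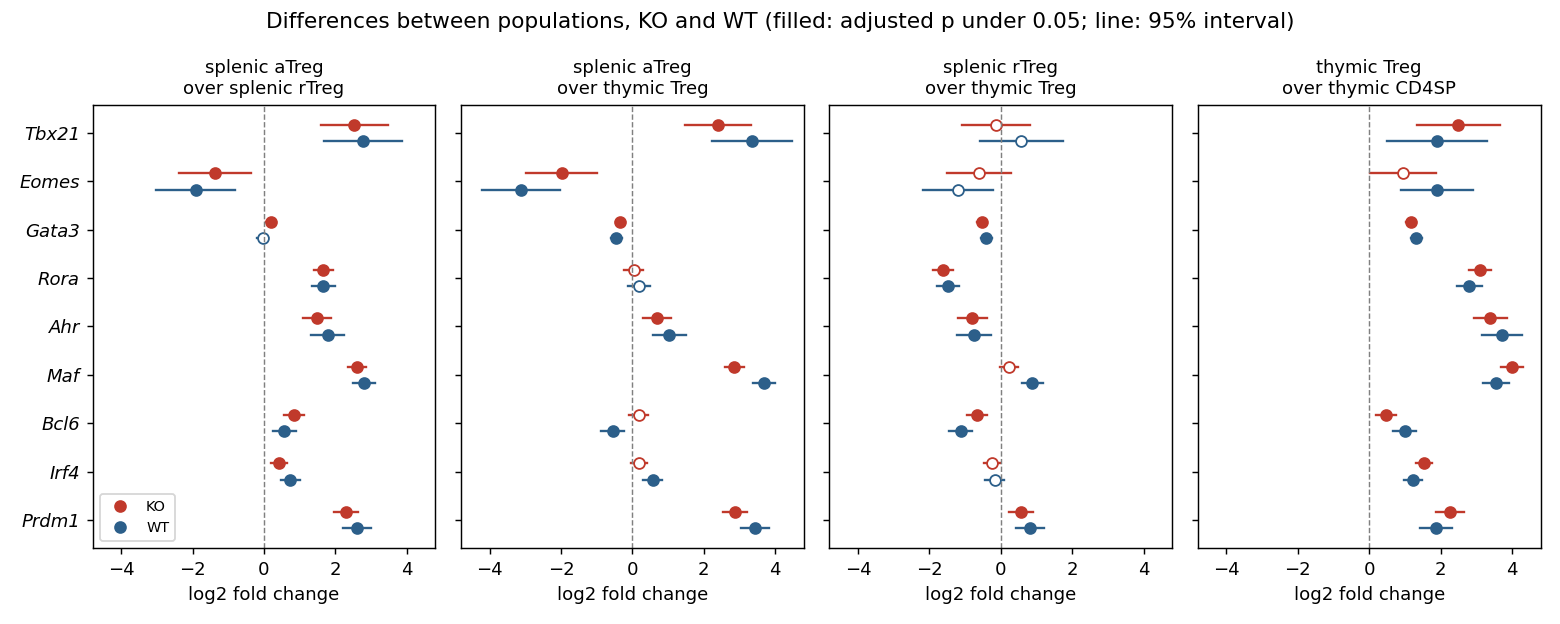
Log2 fold changes between populations for each gene, with KO in red above WT in blue, 95% intervals from the edgeR fit and filled points at an adjusted p under 0.05. Tbx21, Maf and Prdm1 lie far to the right in both panels of aTreg cells and Eomes to the left, between -3.12 and -1.38.

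The order of the 8 groups differed between members. For Maf, Prdm1 and Tbx21 both aTreg groups came first, without overlap with the next group. For Ahr the order by group mean was aTreg, thymic Treg, rTreg and CD4SP, with KO above WT each time, and KO thymic Treg did not overlap WT thymic Treg, nor KO rTreg WT rTreg. For Rora, KO aTreg, KO thymic Treg, WT aTreg and WT thymic Treg followed each other with overlap between neighbours, and both rTreg groups lay below. Eomes was highest in WT thymic Treg, without overlap with WT rTreg next to it, and all later neighbours overlapped. For Bcl6 all neighbours in the order overlapped. CD4SP was lowest for 7 members, whereas Bcl6 was lowest in KO rTreg (18.1 to 22.5 CPM) and Eomes in KO aTreg.

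Ratios of members, formed per kilobase of exon within each library, are given as description with no test. Prdm1 over Bcl6, the pair that repress each other in B and T cells, was 3.48 to 5.27 in KO aTreg and 5.67 to 6.14 in WT aTreg. It was 1.48 to 1.92 in KO rTreg and 1.33 to 1.503 in WT rTreg. In thymic Treg cells Bcl6 exceeded Prdm1, with a ratio of 0.568 to 0.843 in KO and 0.321 to 0.406 in WT, and in CD4SP the ratio was 0.165 to 0.232 in KO and 0.130 to 0.311 in WT. KO and WT libraries did not overlap in thymic Treg and aTreg cells, and KO was higher in the one and lower in the other. Tbx21 over Eomes was 1.03 to 1.52 in KO thymic Treg and 0.0583 to 0.439 in WT thymic Treg, again without overlap, and 14.7 to 81.0 in KO aTreg and 10.99 to 67.9 in WT aTreg. Maf over Gata3 was 0.781 to 0.899 in KO aTreg, 0.860 to 0.911 in WT aTreg, 0.0748 to 0.1001 in KO thymic Treg and 0.0437 to 0.0556 in WT thymic Treg.

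**Figure D4:**
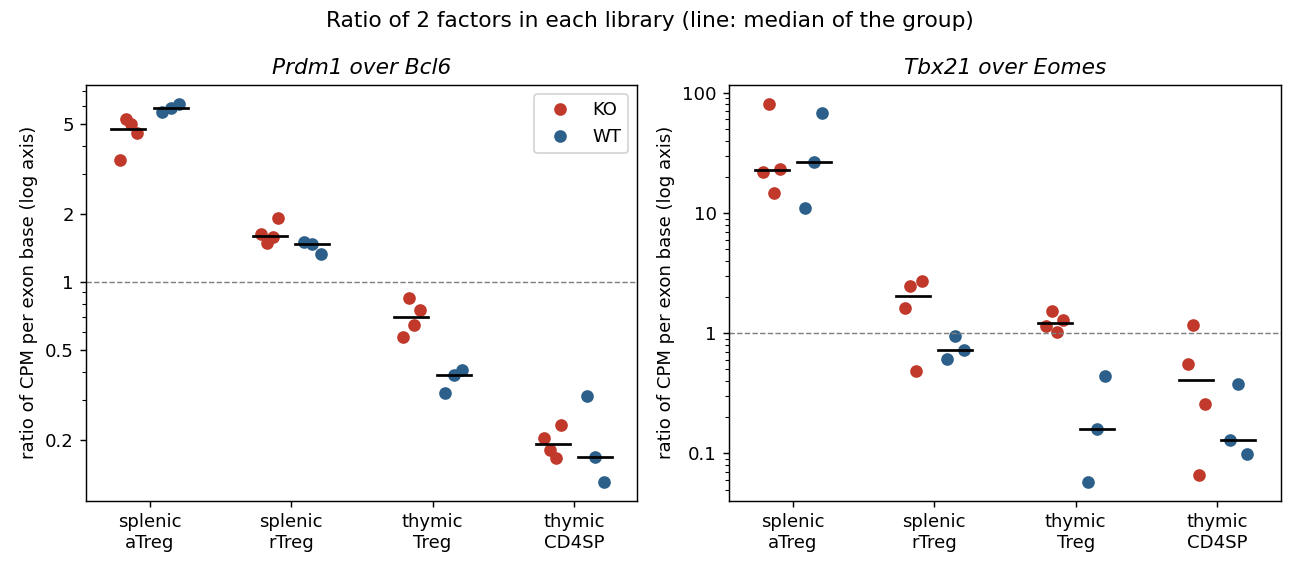
Ratio of Prdm1 to Bcl6 (left) and of Tbx21 to Eomes (right), each per kilobase of exon, in every library on a log axis, with KO in red left of WT in blue, a line at the group median and a dashed line at equal levels. Prdm1 exceeds Bcl6 in every splenic library and in no thymic one, and Tbx21 exceeds Eomes in every aTreg library and every KO thymic Treg library.

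Across the 28 libraries, Pearson's r of log2(CPM + 0.5) described which members varied alike. The libraries share their sorted population, so these values mostly restate the differences above. Maf and Prdm1 had an r of 0.97, Ahr and Maf 0.94, Tbx21 and Prdm1 0.93, and Rora and Ahr 0.93. Eomes stood apart, with an r of -0.49 with Tbx21 and -0.35 with Prdm1, and Bcl6 was closest to Rora (0.69).

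Among about 9450 genes with a mean of at least 5 CPM, those most like each member by the same measure were named. For Tbx21 they were Glrx (0.97), S100a11 (0.97) and Gm14005 (0.96), for Maf Nfil3 (0.99), S100a6 (0.99) and Atxn1 (0.99), and for Prdm1 Matk (0.99), Cst7 (0.98) and Gjb2 (0.98). For Ahr they were Stx11 (0.99), Zcchc18 (0.99) and Cd38 (0.99), and for Rora Plcb4 (0.99), 2310015A10Rik (0.98) and Dusp14 (0.98). For Gata3 they were Sh3rf1, Tgif1 and Bmyc (0.97 each), and for Irf4 Syt11, Agpat4 and Tmem243 (0.96 each). Stx11, the closest to Ahr, averaged 52.1 CPM in KO aTreg, 45.3 in WT aTreg, 32.6 in KO thymic Treg, 22.7 in WT thymic Treg and at most 1.01 in CD4SP. The likeness was weaker for Bcl6, with Tox (0.90), Itgal (0.88) and Tmem135 (0.86), and for Eomes, with Ip6k1 (0.88), Xpo6 (0.88) and Rnf214 (0.85).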

How the data were processed

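Total RNA of 28 sorted samples was amplified with the SMART method and sequenced from both fragment ends (Illumina), per the labels' protocols. Reads had been trimmed with Trimmomatic, aligned to mm10 with STAR and counted per gene with HTSeq, per the submitters' processing notes. The deposited values are whole-number counts per gene symbol, not normalized, in 1 file per library. Lines that name no gene (42.3 to 49.7% of reads in no gene, 0.608 to 0.763% ambiguous, 22.8 to 30.4% multiply aligned) were left out. Replicate libraries differed well beyond sampling noise.

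Genes passing edgeR's filterByExpr (13338) were fitted together over all 8 groups (edgeR 4.0.16, R 4.3.3, TMM factors 0.970 to 1.04, 20 residual degrees of freedom). Contrasts used the quasi-likelihood F test with Benjamini-Hochberg adjustment, at a threshold of 0.05. The procedure was tested on simulated data. The design had 4 KO-against-WT contrasts, 8 between populations and 4 differences of KO effects.

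The members and gene lists were chosen with earlier results of these data known. Named genes are the 9 members, population checks (Foxp3, Ccr7, Cd44, Klrg1), up to 3 called genes per list with the smallest p, and the 3 genes most like each member. Some genes that the rule names are not reported here.

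Same-numbered libraries deviated together (every pair's correlation over 0.1) for aTreg against rTreg in KO (0.286 to 0.442), aTreg against thymic Treg in WT (0.140 to 0.288) and thymic Treg against CD4SP in WT (0.125 to 0.359), where a replicate block changed no call among the 9. The labels' design text says that littermates were sorted and processed in parallel. Alternatives were DESeq2 1.42.0, limma 3.58.1 voom, other scaling, no filter, only the groups compared, replicate blocks, a covariate (the summed myeloid markers, or the library's reads outside genes), and libraries left out.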

Additional observations from a re-analysis of the deposited data

Results flagged for a closer look

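A single KO aTreg library, number 2, had Gata3 at 323 CPM, whereas the other 3 KO aTreg libraries lay between 282 and 287 CPM, so that most of that group's range came from it.

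Ahr in KO CD4SP library 2 stood at 4.003 CPM, against 1.10 to 1.48 CPM in the other 3 KO CD4SP libraries. The same library had the highest sums of myeloid (253 CPM), B cell (35.4 CPM) and immature thymocyte markers (1346 CPM) of its group, and their part in the Ahr value was not tested. Of 36 groups of 4 libraries examined for such gaps, these were the 2 that had one, and chance alone gives one in about 1 of 20 groups.

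The KO effect on Maf differed between aTreg and thymic Treg cells by -0.83 on the log2 scale (edgeR adjusted p = 0.0259).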

How the results depend on the processing

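Counts of the 9 factors past the threshold moved by more than 1.5 times in 3 comparisons. Between KO and WT thymic Treg cells the count was 4, and it was 1 with the myeloid sum as a covariate, 0 with the share of reads outside genes, 1 without KO libraries 1 and 2, and 1 to 3 with single libraries left out. For the KO effect in aTreg minus thymic Treg it was 1, and it was 2 with DESeq2, voom, no filter on low counts or a replicate block by genotype and number, 0 with either covariate, and 0 to 2 with single libraries left out. For rTreg against thymic Treg in KO it was 5, and 3 with either covariate. In that comparison the myeloid covariate turned Ahr to 0.38 and Prdm1 to -0.27, with neither past the threshold. Over all settings the counts were 7 to 9 for thymic Treg against CD4SP in each genotype, 4 to 7 for rTreg against thymic Treg in WT, 6 to 9 for aTreg against rTreg in KO and 7 to 8 in WT, and 7 to 8 for aTreg against thymic Treg in WT. The cause was not tested in any of these cases.

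Of 1047 recomputed values of the 64 called member values, 983 kept direction and call, 62 lost the call and 2 changed direction. Of 1528 recomputed values of those not called, 22 passed in the same direction, and 0 passed in the opposite one. Apart from left-out libraries, the settings that ended a call without a change of direction were mostly the 2 covariates (11 times the myeloid sum, 12 times the share outside genes). The 2 values that changed direction, Ahr and Prdm1 in KO rTreg against thymic Treg, also lost their calls with the myeloid sum. Others were voom for Tbx21 in WT thymic Treg against CD4SP (1.73, adjusted p = 0.103), DESeq2 size factors in edgeR for Rora (0.44, adjusted p = 0.0517) and a fit of only the 2 groups for Bcl6 (-0.49, adjusted p = 0.0610) in KO against WT thymic Treg. Calls that appeared included Ahr with voom between KO and WT thymic Treg cells (0.46, adjusted p = 0.0154) and Eomes in WT rTreg against thymic Treg with DESeq2 (-1.22, adjusted p = 0.0407) and voom (-1.21, adjusted p = 0.00489).

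The replicate block also gave calls for Eomes in WT rTreg against thymic Treg (-1.18, adjusted p = 0.0265, by number) and KO thymic Treg against CD4SP (0.99, adjusted p = 0.0304), and for Irf4 in KO rTreg against thymic Treg (-0.24, adjusted p = 0.0375). For those comparisons the numbers did not pair all libraries by their deviations.

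Counts over all genes moved by more than 1.5 times as follows. KO against WT thymic Treg had 1246 calls, but 388 with the myeloid covariate, 45 with the share outside genes, 450 without KO libraries 1 and 2, 766 without KO library 3, 497 without WT library 1 and 546 without WT library 2. KO against WT gave 26 calls in CD4SP (63 with DESeq2, 4 with voom, 0 with only those groups), 18 in rTreg (48 and 28 with DESeq2 and voom) and 4 in aTreg (15 and 8, and 7 with only those groups, 12 with a block by number, 13 with the share outside genes). The KO-effect differences had 113 calls for aTreg minus thymic Treg (353 with DESeq2, 287 with voom, 263 with only those groups, 236 and 323 with the blocks, 51 and 13 with the covariates, 54 without KO thymic Treg libraries 1 and 2). There were 82 for thymic Treg minus CD4SP (325 with DESeq2, 32 with only those groups, 152 and 174 with the blocks, 180 and 3 with the covariates), 4 for rTreg minus thymic Treg (74 with DESeq2, and 0 to 25 over the other settings and left-out libraries) and 0 for aTreg minus rTreg (1 with DESeq2 or a block). With single libraries left out, the calls were 15 to 35 in CD4SP, 6 to 14 in rTreg and 0 to 6 in aTreg for KO against WT, 30 to 197 for aTreg minus thymic Treg and 40 to 162 for thymic Treg minus CD4SP. The myeloid covariate left 713 calls of 5724 for rTreg against thymic Treg in KO (1340 with the share outside genes) and 1658 of 4081 in WT. It left 2890 of 5555 for aTreg against rTreg in KO and 2201 of 5060 in WT, 3501 of 5587 for aTreg against thymic Treg in KO, and 3269 of 7533 in KO and 3792 of 6447 in WT for thymic Treg against CD4SP.

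Depth limits Tbx21 and Eomes most, since several libraries held fewer than 10 counts. Raw library sizes in place of TMM moved group means by -2.45 to 3.58%.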
